A study of Mus musculus with 8 samples.

Results

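Scavenger receptors are cell surface and endosomal proteins that bind modified lipoproteins, bacteria, dying cells and other polyanionic or damaged material and deliver it into the cell. They are grouped by structure rather than by a common origin. In macrophages they clear debris, take up oxidized lipid and help to recognise microbes, and several of them are controlled by Toll-like receptor signaling. Described here are 10 of their genes: Olr1, Msr1, Marco, Cd36, Scarb1, Scarb2, Cd163, Cd68, Stab1 and Scarf1. A gene was read from the array probes whose accession maps to it in the RefSeq gene table, at the probe with the highest mean intensity over all arrays. In this way 9 of the 10 genes had a value, from 11 probes, among 37018 genes and transcripts measured. Cd68 was not analysed here, since no probe's accession matched it.

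The samples were adherent peritoneal macrophages of C57BL/6 mice, cultured from wild-type (WT) littermates and from LysMCre-fur(fl/fl) animals (FURIN KO), in which Cre driven by the lysozyme M promoter deletes the floxed Furin gene in cells of the myeloid lineage. FURIN is a proprotein convertase, an enzyme that cuts precursor proteins into their mature forms. The cells were left unstimulated or were given bacterial lipopolysaccharide (LPS), the ligand of Toll-like receptor 4, at 1 μg/ml for 1, 4 or 24 h. Each condition was measured on 2 Agilent 2-colour arrays, 8 in all, each of which took a KO and a WT sample of 1 time point in different dyes. The labels call the replicates biological, and the ages and numbers of the animals behind them are not given in the sources used here. KO RNA was in Cy5 on the arrays of replicate 1 and in Cy3 on those of replicate 2, so a replicate and a dye orientation cannot be told apart.

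Values are log2 intensities after background correction and normalization. Each of the 16 channels gives 1 value per gene, and a difference of 1 is a 2-fold difference. The level of one probe cannot be set against that of another, so every comparison below is within a gene. A value is "well above background" where the scanner software says so for its spot, which was the case for 43.8 to 51.3% of the gene spots of a channel. All 16 channels were well above background for Olr1, Msr1, Marco, Cd36, Scarb1, Scarb2 and Stab1, 10 of 16 for Scarf1 and 0 of 16 for Cd163. No spot of a member was saturated or flagged as an outlier. Furin itself was lower in the KO channel on 6 of 8 arrays, with a mean log2 difference of -0.44 (SE 0.06, adjusted p = 0.0220), and was 0.16 higher on average at 4 h. Where its probe lies relative to the floxed part of the gene was not known, so this checks the labels only in part. Lyz2, whose locus carries Cre, was lower on 8 of 8 arrays, by a mean log2 difference of -1.18.

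The labelled cell type was checked against marker genes. All 9 macrophage markers were well above background in all 16 channels, Adgre1 between 14.92 and 16.15 and Csf1r between 15.02 and 17.64 log2 units. Genes of other cells were present too. All 8 B cell markers and all 7 mast cell markers were well above background in every channel, and so were 5 of 9 T and NK cell markers. Of the other lists, 4 of 7 neutrophil, 3 of 8 endothelial, 2 of 10 mesothelial and fibroblast, 1 of 6 adipocyte, 4 of 8 steroid-producing cell and 2 of 6 platelet markers were well above background throughout. Of the endothelial list Cdh5, Tek and Tie1 were so in 0 of 16 channels, while Pecam1, Kdr and Egfl7 were so in 16 and Vwf in 15. Of the adipocyte list Adipoq, Plin1, Cidec and Lep were so in 0 of 16 channels and Fabp4 in 16. In such cultures fewer cells of a type and less RNA per cell cannot be told apart.

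The sequence upstream of the gene start is shown for the members whose LPS response, given below, passed the test in both genotypes and whose promoter is in the RefSeq promoter table (3 of 5 such members). They differ in direction: Olr1 rose within 1 h of LPS, whereas Cd36 and Stab1 fell by 4 h. Each run is the 250 bases before the start, read 5′ to 3′ along the gene, in GRCm38.p6. Olr1 lies at chr6:129507166-129507415, Cd36 at chr5:17835897-17836146 and Stab1 at chr14:31168642-31168891, all 3 on the minus strand. Capitals mark matches on either strand to 3 short motifs: TGANTCA, bound by AP-1 factors such as FOS and JUN, GAGGAA, the core bound by the myeloid factor PU.1, and TATAAA, the TATA box.
Olr1: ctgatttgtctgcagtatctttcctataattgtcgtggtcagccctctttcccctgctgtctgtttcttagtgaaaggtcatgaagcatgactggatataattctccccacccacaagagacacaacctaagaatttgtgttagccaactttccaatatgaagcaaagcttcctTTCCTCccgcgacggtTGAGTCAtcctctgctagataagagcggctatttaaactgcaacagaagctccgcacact
Cd36: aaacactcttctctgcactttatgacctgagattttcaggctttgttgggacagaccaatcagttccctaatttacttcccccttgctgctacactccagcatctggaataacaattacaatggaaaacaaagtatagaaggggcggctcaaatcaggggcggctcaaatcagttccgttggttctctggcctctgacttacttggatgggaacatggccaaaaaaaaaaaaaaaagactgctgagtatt
Stab1: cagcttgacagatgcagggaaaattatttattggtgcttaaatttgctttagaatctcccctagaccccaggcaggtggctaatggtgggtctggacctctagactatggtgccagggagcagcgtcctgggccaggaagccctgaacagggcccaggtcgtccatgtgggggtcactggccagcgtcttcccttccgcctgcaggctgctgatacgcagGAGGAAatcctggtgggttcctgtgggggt
The Olr1 run held 1 match to TGANTCA, which begins 60 bases before the start, and 1 to GAGGAA on the other strand, 76 bases before it. The Stab1 run held 1 match to GAGGAA, 30 bases before the start. The Cd36 run held none of the 3 motifs. Among all 32851 promoters of the table, 6.75% held TGANTCA, 23.3% GAGGAA and 12.4% TATAAA in the same window. A match describes letters only, and no binding was measured.

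The first question was how each receptor gene responded to LPS. The receptors did not move as a group. Olr1 rose steeply at 1 h and fell below its unstimulated level by 24 h, Cd36 fell progressively, Scarb1 and Stab1 fell most at 4 h and recovered in part, Scarf1 rose from a signal near background, Marco had no call and Scarb2 a single one. Of the 9 genes measured, 1 passed the test after 1 h in WT cells, 7 passed after 4 h and 6 after 24 h. The counts in KO cells were 1, 5 and 6. The test was limma's separate-channel analysis over all 36927 genes and transcripts tested, and adjusted p-values are those of Benjamini and Hochberg with a threshold of 0.05. LPS changed many genes in these cells. In WT cells 3.35% of all genes and transcripts were called higher and 5.15% lower after 1 h, 15.5% higher and 19.2% lower after 4 h, and 13.5% higher and 16.8% lower after 24 h. The shares in KO cells were 3.08% higher and 4.45% lower after 1 h, 16.2% and 19.7% after 4 h, and 12.8% and 15.9% after 24 h. Against these shares, 3 of 9 members were called higher and 4 lower at 4 h in WT cells, and 2 higher and 4 lower at 24 h. In KO cells 2 were higher and 3 lower at 4 h, and 1 higher and 5 lower at 24 h. The median log2 difference of the 9 members was 0.02, -0.20 and -0.36 at 1, 4 and 24 h in WT cells and -0.15, -0.15 and -0.54 in KO cells, beside medians between -0.02 and 0.00 over all genes and transcripts.

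**Figure D1:**
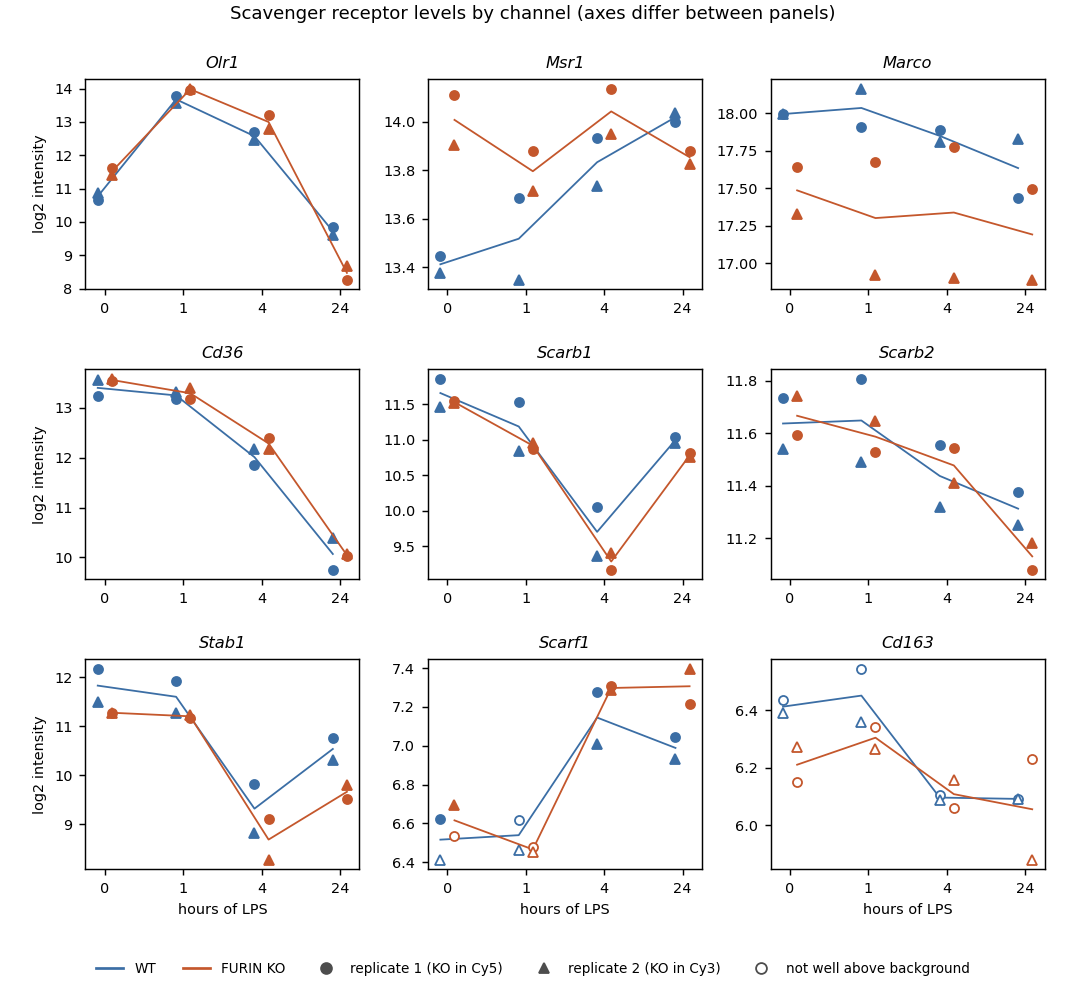
Log2 intensity of the 9 receptor genes in each of the 16 channels (y axis, which differs between panels) against hours of LPS (x axis, not to scale). Blue is WT and orange FURIN KO, circles are replicate 1 and triangles replicate 2, lines join the means of 2 arrays, and open symbols were not well above background. Olr1 peaked at 1 h in both genotypes, Cd36 fell to about 10 at 24 h, and all channels of Cd163 were open symbols.

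Olr1 encodes LOX-1, a lectin-like receptor for oxidized low-density lipoprotein that also binds bacteria. In unstimulated WT cells its log2 intensity was 10.66 and 10.87 on the 2 arrays. After 1 h of LPS it was 13.79 and 13.57, after 4 h 12.68 and 12.46, and after 24 h 9.84 and 9.60. In KO cells the pairs of values were 11.61 and 11.42 unstimulated, then 13.96 and 14.00 (1 h), 13.22 and 12.78 (4 h), and 8.27 and 8.67 (24 h). None of the 8 groups overlapped, and the order from the highest was KO and WT at 1 h, KO and WT at 4 h, KO and WT unstimulated, then WT and KO at 24 h. The KO cells thus had the highest and the lowest levels. In WT cells Olr1 rose by 2.91 (SE 0.17) at 1 h, a 7.53-fold increase, with limma's adjusted p = 9.33e-08. It was still 1.81 higher at 4 h (adjusted p = 1.21e-06) and below its unstimulated level at 24 h, with a log2 difference of -1.04 (adjusted p = 0.000293). In KO cells the differences were 2.47 at 1 h (adjusted p = 6.06e-07), 1.49 at 4 h (adjusted p = 8.31e-06) and -3.04 at 24 h (adjusted p = 1.37e-08). The last is an 8.23-fold decrease against 2.06-fold in WT cells. The rise at 1 h stood at the 99.7th percentile of all genes and transcripts tested in both genotypes.

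Msr1 encodes scavenger receptor A, a trimeric receptor with a collagen-like stalk that takes up acetylated lipoprotein and bacteria. It is represented by 2 probes with the same accession. At the brighter one WT cells gave 13.45 and 13.38 unstimulated, 13.69 and 13.35 after 1 h, 13.93 and 13.73 after 4 h, and 14.00 and 14.04 after 24 h. KO cells gave 14.11 and 13.90, 13.88 and 13.71, 14.14 and 13.95, and 13.88 and 13.83 at the same times. Msr1 rose in WT cells, by 0.42 (SE 0.12, adjusted p = 0.0163) at 4 h and by 0.61 (adjusted p = 0.00166) at 24 h. In KO cells, which started higher, the differences were 0.03 (adjusted p = 0.882) and -0.15 (adjusted p = 0.450). The rise at 4 h in WT cells missed the threshold without replicate 2 of the unstimulated arrays (0.39, adjusted p = 0.0937) or replicate 1 of those at 4 h (0.32, adjusted p = 0.135).

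The dimmer Msr1 probe gave another picture in KO cells. There the WT channels read 12.26 and 11.72 unstimulated and 13.53 and 13.41 at 24 h, and the KO channels 12.21 and 12.43 unstimulated and 13.26 and 13.41 at 24 h. Msr1 rose at this probe in both genotypes at 24 h, by 1.47 in WT cells (SE 0.20, adjusted p = 6.16e-05) and by 1.01 in KO cells (adjusted p = 0.00148). The rise at 4 h was 0.76 in WT cells (adjusted p = 0.00881) and 0.61 in KO cells (adjusted p = 0.0307). The probes therefore disagree on whether Msr1 responded to LPS in KO cells, and agree in direction for WT cells. Which part of the transcript each probe reads was not known.

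**Figure D2:**
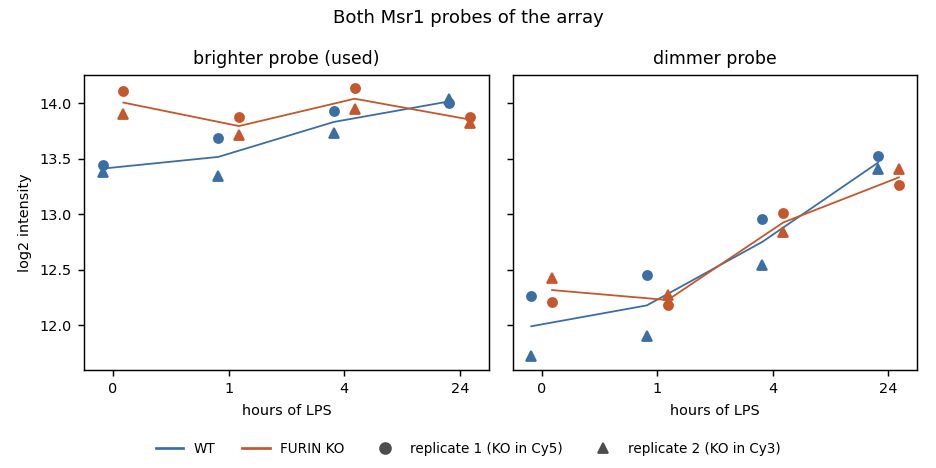
Log2 intensity of both Msr1 probes (y axis) against hours of LPS (x axis, not to scale), in WT (blue) and FURIN KO (orange) channels of replicate 1 (circles) and replicate 2 (triangles), with lines through the means of 2 arrays. At the brighter probe the KO values stayed between 13.71 and 14.14, and at the dimmer probe both genotypes rose to between 13.26 and 13.53 at 24 h.

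Marco encodes a relative of scavenger receptor A that binds bacteria and inhaled particles and marks resident macrophages of the peritoneum, lung and spleen. WT cells gave 18.00 on both arrays unstimulated (quantile normalization gives spots of equal rank the same value), 17.91 and 18.17 after 1 h, 17.89 and 17.81 after 4 h, and 17.44 and 17.83 after 24 h. KO cells gave 17.64 and 17.33, 17.68 and 16.93, 17.78 and 16.90, and 17.49 and 16.89. No LPS difference of Marco passed the test. At 24 h it was -0.36 in WT cells (SE 0.30, adjusted p = 0.449) and -0.29 in KO cells (SE 0.30, adjusted p = 0.563).

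Cd36 encodes a receptor for long-chain fatty acids, oxidized lipoprotein and thrombospondin. It was 13.24 and 13.56 in unstimulated WT cells, 13.18 and 13.32 after 1 h, 11.85 and 12.17 after 4 h, and 9.75 and 10.39 after 24 h. KO cells gave 13.53 and 13.58, 13.18 and 13.40, 12.40 and 12.17, and 10.03 and 10.06. WT and KO values overlapped at each of the 4 times, while the 4 h and the 24 h values lay apart from all earlier ones. Cd36 fell in WT cells, with log2 differences of -1.39 at 4 h (SE 0.19, adjusted p = 3.13e-05) and -3.33 at 24 h (adjusted p = 1.10e-08), a 10.1-fold decrease. In KO cells they were -1.27 (adjusted p = 7.05e-05) and -3.51 (adjusted p = 7.31e-09), an 11.4-fold decrease. Neither 1 h difference passed the test.

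Scarb1 encodes SR-BI, the receptor from which cells take cholesteryl esters of high-density lipoprotein. WT cells gave 11.86 and 11.45 unstimulated, 11.53 and 10.84 after 1 h, 10.05 and 9.36 after 4 h, and 11.04 and 10.95 after 24 h. KO cells gave 11.54 and 11.51, 10.87 and 10.96, 9.17 and 9.40, and 10.81 and 10.75. Scarb1 fell at 4 h, with a log2 difference of -1.95 in WT cells (SE 0.23, adjusted p = 1.00e-05) and -2.24 in KO cells (adjusted p = 2.71e-06), that is 3.86-fold and 4.71-fold. At 24 h the decrease was smaller, with log2 differences of -0.66 (adjusted p = 0.0444) and -0.75 (adjusted p = 0.0246). A second, dimmer Scarb1 probe gave the same signs at every time. There the 4 h differences were -1.25 (adjusted p = 0.000378) and -1.47 (adjusted p = 8.96e-05), while those at 24 h, -0.39 and -0.27, did not pass the test (adjusted p = 0.231 and 0.456). The 24 h calls of the brighter probe were also lost without single arrays: in KO cells without any 1 of the 4 arrays compared (-0.72 to -0.77, adjusted p from 0.0817 to 0.128), and in WT cells without replicate 1 of the unstimulated arrays (-0.46, adjusted p = 0.327), replicate 1 at 24 h (-0.71, adjusted p = 0.131) or replicate 2 at 24 h (-0.61, adjusted p = 0.202). At 1 h Scarb1 was -0.47 in WT cells and -0.61 in KO cells (adjusted p = 0.312 and 0.155). With the replicate number as a block both of these passed, with adjusted p = 0.0411 and 0.0106, in fits that called 12.2% and 11.9% of all genes and transcripts.

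Scarb2, a relative of Scarb1, encodes LIMP-2, an abundant protein of the lysosomal membrane. Its 16 values lay between 11.08 and 11.81. The only call was in KO cells at 24 h, with a log2 difference of -0.54 (SE 0.13, adjusted p = 0.00615). It missed the threshold without replicate 2 of the unstimulated arrays (-0.46, adjusted p = 0.0600) or replicate 1 at 24 h (-0.48, adjusted p = 0.0627). In WT cells the difference at 24 h was -0.32 (adjusted p = 0.0832), which passed with the replicate block (adjusted p = 0.0165, where 34.9% of all were called).

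Stab1 encodes stabilin-1, a clearance receptor for acetylated lipoprotein and apoptotic cells found on tissue macrophages and sinusoidal endothelium. WT cells gave 12.18 and 11.49 unstimulated, 11.93 and 11.28 after 1 h, 9.82 and 8.81 after 4 h, and 10.77 and 10.31 after 24 h. KO cells gave 11.27 and 11.28, 11.17 and 11.24, 9.10 and 8.27, and 9.52 and 9.80. It fell at 4 h, by log2 differences of -2.52 in WT cells (SE 0.33, adjusted p = 3.02e-05) and -2.60 in KO cells (adjusted p = 2.29e-05), a 5.73-fold and a 6.05-fold decrease. At 24 h the log2 difference was -1.30 in WT cells (adjusted p = 0.00820) and -1.62 in KO cells (adjusted p = 0.00186). The WT call at 24 h was lost without replicate 1 of the unstimulated arrays (-0.95, adjusted p = 0.124) or replicate 2 at 24 h (-1.07, adjusted p = 0.0958).

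Scarf1 encodes SREC-I, a receptor for modified lipoprotein and apoptotic cells. Its probe was dim. WT cells gave 6.62 and 6.41 unstimulated, 6.62 and 6.46 after 1 h, 7.28 and 7.01 after 4 h, and 7.05 and 6.93 after 24 h. KO cells gave 6.54 and 6.70, 6.48 and 6.45, 7.31 and 7.29, and 7.22 and 7.40. Both arrays of each genotype were well above background at 4 h and at 24 h, 1 of 2 was so unstimulated and 0 of 2 at 1 h, where the level is only a bound. The differences from unstimulated cells therefore rest on a starting level that only 1 array per genotype measured above background. Scarf1 rose at 4 h by 0.63 in WT cells (SE 0.12, adjusted p = 0.000820) and by 0.68 in KO cells (adjusted p = 0.000411), and at 24 h by 0.47 (adjusted p = 0.00796) and 0.69 (adjusted p = 0.000518). The WT rise at 24 h missed the threshold without replicate 2 of the unstimulated arrays (0.37, adjusted p = 0.0932) or replicate 1 at 24 h (0.41, adjusted p = 0.0706).

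Cd163 encodes the macrophage receptor for haptoglobin-haemoglobin complexes. Its probe read between 5.88 and 6.54 and was not well above background in any channel. The call at 4 h in WT cells (adjusted p = 0.0488) is therefore between 2 groups not well above background, and no fold is given. Without it 6 of the 8 genes with a usable signal were called at 4 h in WT cells.

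**Figure D3:**
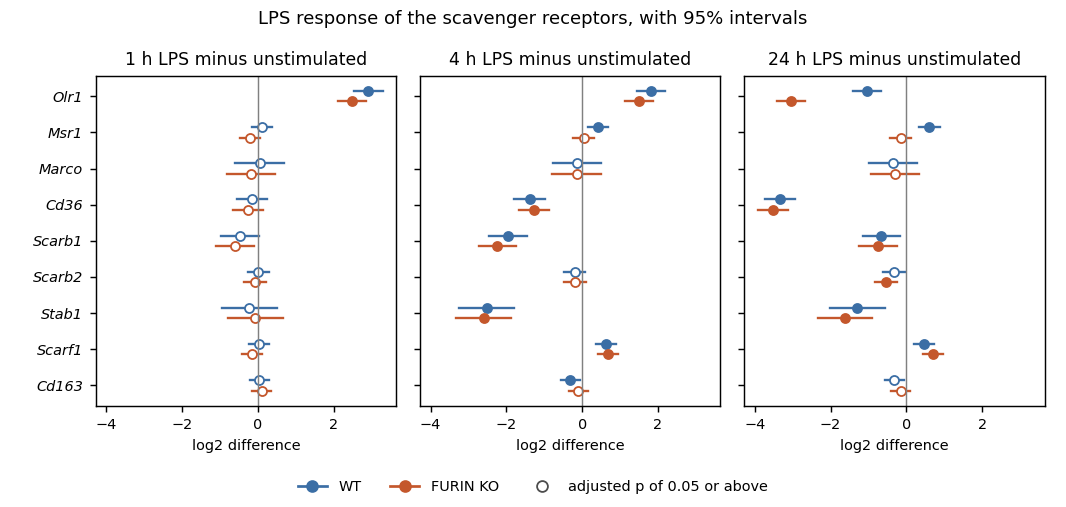
Log2 difference from unstimulated cells (x axis) of each receptor gene after 1, 4 and 24 h of LPS, in WT (blue) and FURIN KO (orange) macrophages. Lines are 95% intervals of limma's separate-channel fit on 2 arrays per group, and filled points passed an adjusted p of 0.05. Olr1 turned from an increase at 1 h and 4 h to a decrease at 24 h, and the KO decrease (-3.04) lay outside the WT interval.

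Other genes followed some members closely over the 16 channels. The likeness is given as Pearson's r among 9519 named genes whose log2 intensity averaged 8 or more, for up to 3 of the closest genes of each member. The channels share arrays and time points, so these values describe the profiles only. The gene closest to Olr1 was Tlr2 (r = 0.986), the Toll-like receptor for bacterial lipoproteins, followed by Larp4b (0.961) and the phosphatase gene Ptpre (0.959). Cd36 was closest to Ephx1 (0.996), microsomal epoxide hydrolase, then to Hexim2 (0.992) and Krt222 (0.990). Scarb1 was closest to Dag1 (0.993), which encodes dystroglycan, then to the Fc receptor gene Fcgr3 (0.981) and Spcs1 (0.980). Stab1 was closest to Cux1 (0.974) and Atp6ap1 (0.973), and Scarb2 to Ecm1 (0.961), Cbr2 (0.951) and the lysosomal enzyme gene Aga (0.933). Scarf1 was closest to the guanylate-binding protein gene Gbp9 (0.974), then to Ercc6l2 (0.970) and 1600014C10Rik (0.966). The closest genes of Msr1 were Chst11 (0.877), Ptpn7 (0.830) and Slc7a8 (0.816), and those of Marco were Cpne2 (0.844), Agtrap (0.830) and Abcc5 (0.794), so for these 2 genes no profile was as near.

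The second question was whether the receptors differed between FURIN KO and WT macrophages. Olr1 and Msr1 had log2 KO over WT ratios of 0.75 and 0.59 in unstimulated cells and of -1.25 and -0.16 at 24 h. Stab1 was below its WT level on 8 of 8 arrays and Marco on 7 of 8, with mean ratios of -0.62 and -0.55. These differences missed the threshold, and most of them passed once the replicate number was a block. With 2 arrays per time point, limma's fit of the KO over WT ratios called 0 of the 9 members at any time, nor in the mean over the 4 times. At an unadjusted p under 0.05 it gave 3 members unstimulated, 2 at 1 h, 2 at 4 h, 3 at 24 h and 3 for the mean, beside 2126, 2017, 1592, 1263 and 3935 of all genes and transcripts tested. The methods' t-test, run on the same values, gave 2, 0, 0, 2 and 1 members before adjustment, beside 1707, 1756, 1134, 1515 and 505 of all. After adjustment it gave 0 members and 0 of all. Few genes were called at all: 0% of the 36947 genes and transcripts tested unstimulated and at 1 h, 0.00812% at 4 h, 0.0244% at 24 h and 0.563% for the mean over the times. The difference between replicates 1 and 2 recurred at every time (Pearson's r across genes from 0.475 to 0.679 in 6 pairs of time points). A dye difference would recur in the same way, so this does not show that replicate numbers paired the cultures. With the replicate number as a block, which here also takes up the dye, the members called were Olr1, Msr1 and Stab1 unstimulated, Marco at 1 h, Stab1 at 4 h, Olr1 and Stab1 at 24 h, and Msr1, Marco, Scarb1 and Stab1 for the mean. That fit called 1.06%, 0.577%, 0.568% and 0.585% of all genes and transcripts at the 4 times and 6.01% for the mean. Its p-values measure the spread left once the difference between the replicates is taken out. They do not show whether a KO difference recurs between replicates.

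For Olr1 the log2 KO over WT ratio was 0.95 and 0.55 on the 2 unstimulated arrays, 0.18 and 0.43 after 1 h, 0.54 and 0.32 after 4 h, and -1.58 and -0.93 after 24 h. It was above 0 on all 6 arrays of the first 3 time points and below 0 on both arrays at 24 h. The unstimulated mean was 0.75 (SE 0.16), a 1.68-fold higher level in KO cells, with adjusted p = 0.275 and, with the replicate block, 0.0437. At 24 h it was -1.25 (SE 0.16), a 2.38-fold lower level, with adjusted p = 0.0702 and, with the block, 0.00482. Between unstimulated cells and 24 h the ratio changed by -2.00 (SE 0.23, 95% interval -2.53 to -1.47). Its adjusted p was 0.248 without the block and 0.00860 with it.

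Msr1 gave ratios of 0.66 and 0.53 unstimulated, 0.19 and 0.36 after 1 h, 0.20 and 0.21 after 4 h, and -0.12 and -0.21 after 24 h. The replicates lay close together and the ratio was above 0 on 6 of 8 arrays. The unstimulated mean of 0.59 (SE 0.09), a 1.51-fold difference, had adjusted p = 0.161 and 0.0133 with the block. The change to 24 h was -0.76 (SE 0.13, adjusted p = 0.387, and 0.0445 with the block). The mean over the 4 times was 0.23 (adjusted p = 0.0767, and 0.0126 with the block). At the dimmer probe the unstimulated difference was 0.33 (SE 0.20) and the change to 24 h was -0.46, and neither passed with the block (adjusted p = 0.226 and 0.453). The mean over the 4 times was 0.10 there, and did not pass with the block either (adjusted p = 0.352).

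Over all members and times, 0 response differences between the genotypes passed at 1, 4 or 24 h, against 0% of all genes and transcripts at each. At an unadjusted p under 0.05 limma gave 1, 1 and 2 members beside 517, 1073 and 1230 of all, and the methods' t-test 0, 1 and 2 beside 1240, 1373 and 1469. With the replicate block the counts of members were 0, 0 and 2, the 2 being Olr1 and Msr1 at 24 h, against 0%, 0.0352% and 0.211% of all.

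**Figure D4:**
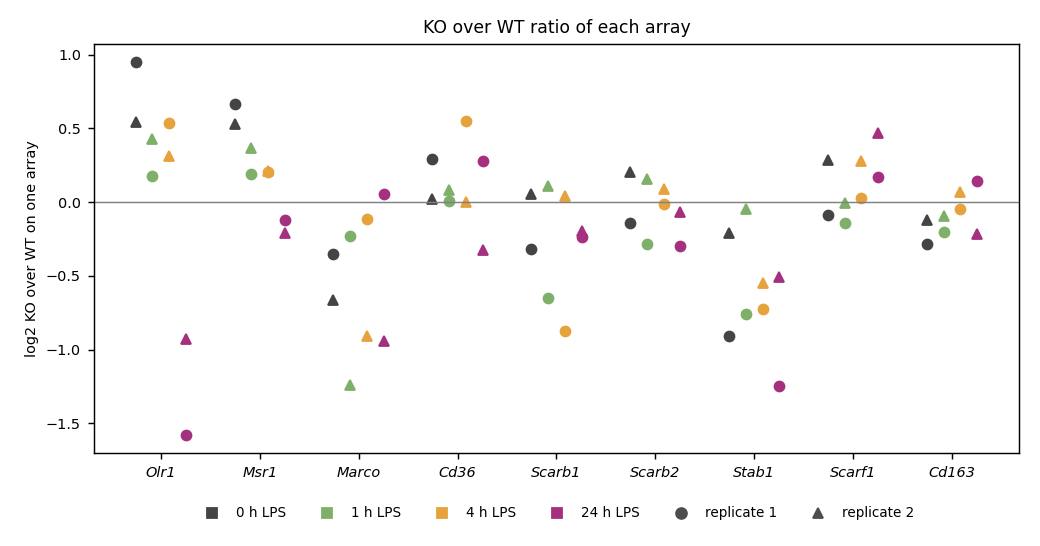
Log2 ratio of FURIN KO over WT on each of the 8 arrays (y axis) for the 9 receptor genes. Colours are hours of LPS, circles are replicate 1 and triangles replicate 2, and the line at 0 marks equal levels. Stab1 was below 0 on all 8 arrays and Marco on 7, and Olr1 was above 0 until 4 h and below 0 at 24 h.

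Stab1 was lower in the KO channel on all 8 arrays. The ratios were -0.90 and -0.21 unstimulated, -0.76 and -0.04 after 1 h, -0.72 and -0.54 after 4 h, and -1.24 and -0.51 after 24 h. The mean over the 4 times was -0.62 (SE 0.11, 95% interval -0.88 to -0.36), a 1.53-fold lower level. It missed the threshold (adjusted p = 0.0610) and passed with the block (adjusted p = 0.000205). The difference was larger on the arrays of replicate 1 at all 4 times, with a mean of -0.91 against -0.33 for replicate 2.

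Marco had ratios of -0.35 and -0.67 unstimulated, -0.23 and -1.24 after 1 h, -0.11 and -0.91 after 4 h, and 0.06 and -0.94 after 24 h. It was lower in the KO channel on 7 of 8 arrays, and here the larger differences were those of replicate 2, with a mean of -0.94 against -0.16 for replicate 1. The mean over the times was -0.55 (SE 0.15, 95% interval -0.88 to -0.21, adjusted p = 0.174), and passed with the block (adjusted p = 0.000649). At 1 h the difference was -0.73 (adjusted p = 0.865, and 0.0271 with the block).

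Scarb1 showed a split by replicate. Its ratios were -0.31, -0.65, -0.88 and -0.24 at 0, 1, 4 and 24 h on the arrays of replicate 1 and 0.06, 0.11, 0.04 and -0.20 on those of replicate 2. The mean over the times was -0.26 (SE 0.11, adjusted p = 0.479, and 0.0453 with the block). It was -0.52 for replicate 1 and 0.004 for replicate 2, a spread that the block takes out. Markers of steroid-producing cells, which express Scarb1 strongly, moved with these replicates. The summed level of the 8 markers, as log2, was 14.24, 14.19, 13.89 and 13.41 at the 4 times in the WT channels of replicate 1 and between 12.54 and 13.27 in the other 12 channels. The sum weights the brightest genes most, here Fdx1 (11.71 to 13.55 over the 16 channels) and Cyp17a1 (10.59 to 11.97). Of the list, Hsd3b1 was well above background in 9 of 16 channels, Cyp11a1 in 16 and Cyp11b1 in 0. The same 4 WT channels had the highest Stab1 value of their time point. The part of these cells in the Scarb1 and Stab1 ratios was not tested.

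For Cd36 and Scarb2 the intervals of the mean ratio included 0. The mean was 0.11 for Cd36 (95% interval -0.08 to 0.31) and -0.04 for Scarb2 (-0.19 to 0.11), with adjusted p of 0.768 and 0.934. Cd36 was higher in the KO channel on 6 of 8 arrays. Scarf1, read only at the 2 times when all its channels were well above background, had a ratio of 0.15 at 4 h (95% interval -0.13 to 0.44) and of 0.32 at 24 h (0.03 to 0.60), with adjusted p = 1.00 at both. The plotted ratios of Cd163, and those of Scarf1 at the other times, involve levels not well above background.

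Among the marker lists, KO over WT medians at single time points lay between -0.17 and 0.53. Of all marker genes limma called Lyz2 lower in KO cells at 24 h and, for the mean over the 4 times, Lyz2 and Csf1r lower (log2 differences of -1.18 and -0.41) and Icam2 higher (0.34). The median of the mast cell markers was 0.48 higher in KO cells for the mean over the times, with 0 of 7 called and 6 of 7 with the replicate block. For the same mean the block called 2 of 9 macrophage markers higher and 3 lower, 3 of 9 T and NK cell markers and 1 of 8 B cell markers higher, and 2 of 8 steroid-producing cell markers and 1 of 7 neutrophil markers lower. The summed macrophage markers ranged from 17.98 to 19.50 in WT and from 17.37 to 18.92 in KO channels, and those of mast cells from 13.11 to 15.53 and from 13.46 to 15.84. A sum weights the brightest genes most, and Hdc of the mast cell list ranged from 9.47 to 15.49. The part of these differences in the receptor values was not tested.

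The receptors were set beside 5 lists of related genes. The first holds 16 other scavenger receptors and soluble or lectin-like receptors with scavenger function, of which 15 were measured. At 4 h, 4 rose and 4 fell in WT cells, and at 24 h 2 rose and 8 fell, with 3 and 5, and 1 and 8, in KO cells. Their median log2 difference at 24 h was -0.36 in WT and -0.92 in KO cells. Cd5l, a secreted protein of tissue macrophages with scavenger receptor domains, fell most at 24 h, with log2 differences of -5.11 in WT cells (adjusted p = 1.23e-11) and -5.17 in KO cells (adjusted p = 1.28e-11). Between the genotypes it was called too, 0.76 higher in KO cells over the 4 times (SE 0.07, adjusted p = 0.00732). Colec12, a collectin with scavenger activity, fell too, with differences of -2.02 in WT cells and -2.25 in KO cells at 24 h. Cd14, the LPS co-receptor, rose at 4 h by 1.52 in WT cells and 1.92 in KO cells, and Cd44, the hyaluronan receptor, by 1.37 and 1.09.

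The second list holds receptors and bridging proteins for apoptotic cells. Of its 18 genes, 4 rose and 10 fell in WT cells at 4 h, and 2 rose and 11 fell at 24 h, with 5 and 9, and 1 and 11, in KO cells. The median log2 difference at 24 h was -2.26 in WT and -2.55 in KO cells. Timd4, the phosphatidylserine receptor of resident macrophages, fell furthest in WT cells at that time, with a difference of -5.29 (adjusted p = 5.21e-10), and had -4.69 in KO cells (adjusted p = 1.71e-09). For the complement chain gene C1qc the differences were -4.96 and -4.87, and for Gas6, which bridges phosphatidylserine to the TAM kinases, -4.01 and -4.47. The kinase genes Axl and Tyro3 rose at 4 h, by 1.86 and 1.36 in WT cells and by 2.21 and 1.57 in KO cells. Thbs1, whose product is a ligand of CD36, was 0.69 higher in KO cells over the 4 times (adjusted p = 0.0453).

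The third list holds genes for the handling of lipid cargo. Of its 16 genes, 2 rose and 11 fell in WT cells at both 4 h and 24 h, and 2 rose and 9 fell at 4 h and 2 rose and 11 fell at 24 h in KO cells, with medians of -0.77 and -0.94 at 24 h. The genes of the fatty acid carriers Fabp4 and Fabp5 fell at 24 h, with differences of -4.43 and -3.69 in WT cells and -3.81 and -3.19 in KO cells. Lipa, the lysosomal acid lipase gene, fell at 4 h, with differences of -2.58 in WT cells and -2.74 in KO cells. It was also lower in KO cells over the 4 times, by a log2 difference of -0.48 (adjusted p = 0.0265). Acsl1, which activates fatty acids, rose at 4 h by 2.04 and 1.85.

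Most genes of the lysosomal list, which holds lysosomal proteins and a regulator of their genes, fell. Of 10 genes 9 fell at 4 h in both genotypes, and at 24 h 9 fell and 1 rose in WT cells and 8 fell and 0 rose in KO cells, with medians of -1.21 and -0.95. Tfeb, the transcription factor of lysosomal genes, fell at 4 h, with differences of -2.57 in WT cells and -2.51 in KO cells. For Ctsd, a lysosomal protease gene, they were -1.58 and -2.09 at 24 h.

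The list for the cargo and shedding of CD163 moved in both directions, with 2 of 9 genes higher and 2 lower in WT cells at 4 h and at 24 h, and 2 higher and 3 lower, and 1 higher and 4 lower, in KO cells. Its medians at 24 h were -0.01 in WT and -0.37 in KO cells. Il10, a cytokine gene, rose by 4.71 and 4.66 at 4 h in WT and KO cells. Hp, which encodes haptoglobin, fell at 4 h, with differences of -2.06 and -2.39, and was lower in KO cells over the 4 times, by a log2 difference of -0.98 (adjusted p = 0.00894). Adam10 and Adam17, sheddase genes, fell at 24 h, with differences of -0.82 and -0.57 in WT cells and -1.03 and -0.48 in KO cells.

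Over the 5 lists, 4 genes were called between the genotypes for the mean over the times, namely Cd5l, Thbs1, Lipa and Hp. With the replicate block the calls for this mean were 1 higher and 1 lower (Lgals3, -0.28, adjusted p = 0.0142) among the other scavenger receptors, 4 and 2 among the genes for apoptotic cells, 0 and 2 in the lipid list, 0 and 4 in the lysosomal list, and 0 and 3 in the list for CD163. At single times the block called 1 other scavenger receptor higher at each of the 4 times. It called 1 gene for apoptotic cells higher at 4 h, and in the lipid list 1 higher at 4 h and 1 lower at 24 h. In the list for CD163 it called 1, 3 and 2 lower at 1, 4 and 24 h.

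**Figure D5:**
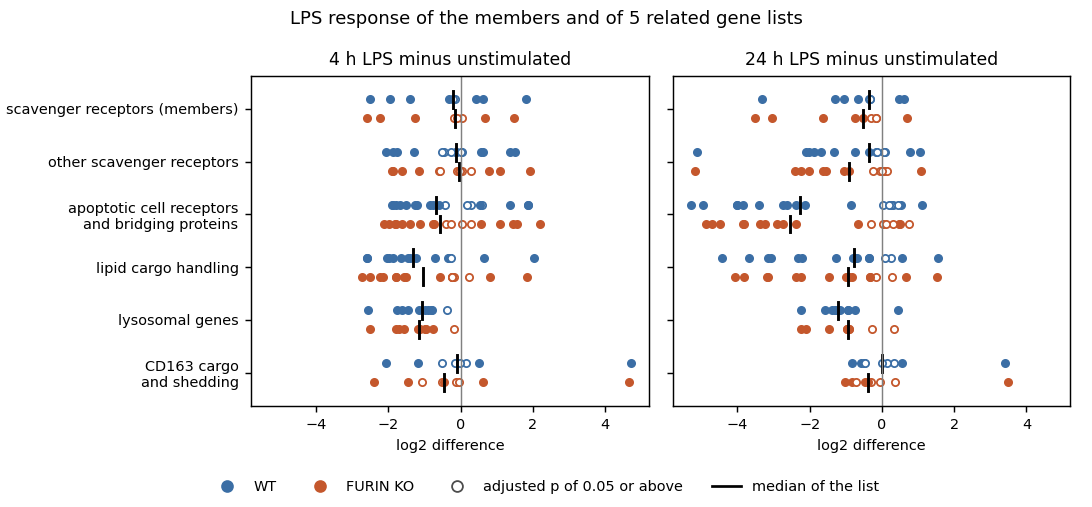
Log2 difference from unstimulated cells (x axis) at 4 h and 24 h of LPS for the 9 members and the genes of 5 related lists (rows), in WT (blue) and FURIN KO (orange) macrophages. Each point is a gene, filled where limma's adjusted p was under 0.05, and the bar is the list's median. At 24 h the bars of the apoptotic cell receptors lay at -2.26 in WT and -2.55 in KO cells, and those of the members at -0.36 and -0.54.

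Markers of other cells also moved with LPS. At 24 h, 5 of 7 mast cell markers fell and 1 rose in both genotypes, and the summed level of the B cell markers was 14.99 to 15.67 in the channels of 4 h and 24 h against 16.21 or more in those of unstimulated cells and 1 h. Calls at 24 h in the other lists of WT and KO cells numbered 3 and 4 of 9 T and NK cell, 4 and 4 of 7 neutrophil, 4 and 4 of 8 endothelial, 2 and 3 of 10 mesothelial and fibroblast, 1 and 1 of 6 adipocyte, 1 and 1 of 8 steroid-producing cell and 1 and 1 of 6 platelet markers. Of the macrophage markers 2 rose and 6 fell in WT cells at 24 h, and 1 rose and 6 fell in KO cells. Their summed level was 19.07 to 19.33 unstimulated and 17.98 to 18.08 at 24 h in WT cells, and 18.83 to 18.86 and 17.37 to 17.53 in KO cells. The part of these changes in the receptor values was not tested.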

How the data were processed

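Per the labels and the study's methods, RNA was amplified, labelled with Cy3 or Cy5 and hybridised in KO and WT pairs to 8 Agilent mouse arrays of 62976 spots. The deposited intensities are the median pixel values of each spot and of its local background, as Agilent Feature Extraction 10.7.3 read them. The authors normalized them by loess and quantile normalization in limma and deposited 1 log2 ratio per spot, which tracked the log2 of red over green signal (r from 0.930 to 0.955, slope from 0.744 to 0.805, medians near 0) and served as an alternative here. All arrays lay on 1 slide with 1 scan time.

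Intensities were corrected by normexp with an offset of 50, normalized by loess within and by quantiles between arrays in limma 3.58.1 (R 4.3.3), averaged over the spots of a probe, and read at the brightest probe of a gene. Control spots and flagged outliers were left out. Genes with a mean log2 intensity under 6 were not tested. KO over WT was fitted to the ratio of each array with 4 residual degrees of freedom. LPS responses were fitted to the separate channels (within-spot correlation 0.116, from 5000 genes). P-values were adjusted by Benjamini and Hochberg over all features tested, and each fit was tested on simulated data. The limma p-values measure the spread between arrays. The methods name a 2-sample t-test, which was run as an alternative. The precision is limited by the 2 arrays per group.

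The differences between replicates correlated between all 6 pairs of time points (r from 0.475 to 0.679), and the labels call the replicates biological. As replicate and dye orientation coincide, the correlation does not show that replicate numbers paired the cultures. The replicate block is also a dye term in the ratio fit. Named genes were the members, the 3 genes most alike to each, and up to 3 called genes in each direction per related list and comparison. Some genes that this rule names are not reported here. Members and lists were chosen with earlier results of these data known. The dimmer probe of Msr1 and Scarb1 was added as an alternative after the data were seen. Gene names and promoters came from RefSeq tables, the promoters on GRCm38.p6.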

Additional observations from a re-analysis of the deposited data

Results flagged for a closer look

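Between the genotypes 2 members had LPS responses whose difference passed a test of the difference itself with the replicate block, and not without it. For Olr1, which encodes LOX-1, the response at 24 h was 2.00 lower in KO than in WT cells on the log2 scale, a difference of -2.00 (SE 0.23), with limma's adjusted p = 0.248 and, with the block, 0.00860. Both KO over WT ratios at 24 h (-1.58 and -0.93) lay below both unstimulated ones (0.95 and 0.55). Leaving out either 24 h array only returns the ratio of the other (-0.93 or -1.58), so it is no separate check.

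For Msr1, which encodes scavenger receptor A, the response at 24 h differed by -0.76 (SE 0.13), with limma's adjusted p = 0.387 and, with the block, 0.0445. The difference was -0.46 at the dimmer Msr1 probe, with adjusted p = 0.453 with the block. The part of cell composition in either value was not tested.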

How the results depend on the processing

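The replicate block moved the count of members called from 0 to 3 unstimulated, 1 at 1 h, 1 at 4 h, 2 at 24 h and 4 for the mean of KO over WT, from 0 to 2 for the response difference at 24 h, and from 1 to 2 at 1 h of LPS in both WT and KO cells. It changed no other count of members by over 1.5 times. The methods' t-test, after adjustment, called 0 members in WT and KO cells at 1 h and at 4 h, 0 in WT cells at 24 h and 1 in KO cells at 24 h (Cd36). At an unadjusted p under 0.05 it gave 1, 4 and 4 members in WT and 2, 5 and 6 in KO cells at 1, 4 and 24 h, beside 4869, 11487 and 10306 and 5065, 10503 and 9981 of all genes and transcripts. It has 2 samples a group and no shared spread. Leaving out each array in turn gave 1 to 1 members called at 1 h in both genotypes, 5 to 7 at 4 h and 4 to 6 at 24 h in WT cells, 5 to 5 at 4 h and 4 to 6 at 24 h in KO cells, and 0 to 0 in every KO over WT and response difference comparison. The difference of Msr1 in KO cells at 24 h (-0.15) turned to 0.43 as the mean of its probes (adjusted p = 0.0424) and to 1.01 at the dimmer probe (adjusted p = 0.00148). The cause was not tested. Of 2254 values of single members under an alternative, 2178 kept their direction and side of the threshold, 52 lost the call, 22 gained one and 2 turned, where a change of sign counted as none if neither value was called and the main one was under 2 SE. No alternative moved the median of all genes by over 0.1, and loess and quantile normalization hold it near 0 in most of them. With 2 arrays per group, unstimulated differences as large as 0.75 between the genotypes (Olr1) were not called without the block. Cd163 at all times, and Scarf1 in unstimulated cells and at 1 h, are limited by signal near background.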
